A study of Mus musculus with 14 samples.

Results

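The Janus kinases and the STAT transcription factors were followed in mouse lung through 9 genes, picked by their names out of 54347 genes in the tables, at a time when earlier results of these data were known. The kinase genes are Jak1, Jak2, Jak3 and Tyk2, and the STAT genes are Stat2, Stat3, Stat5a, Stat5b and Stat6. All 9 genes passed the filter on low counts in every comparison. RNA was sequenced from the lungs of C57BL/6 mice in 14 libraries, which formed 3 experiments with their own controls, and all groups had received intranasal Alternaria alternata, a fungal allergen extract, at 2 mg per dose in 40 µl on 4 days. In the first experiment, irradiated recipients were either carriers of human JAK1 GOF (gain of function, n = 2) or wild type (WT, n = 2), and all had received WT bone marrow. In the second, resiniferatoxin (RTX, n = 3) was given by the intrathecal route at 25 ng per mouse on 2 days to remove spinal visceral afferents, against 10 µl saline (n = 2). In the third, RTX (n = 3) was given under the skin at 30, 70 and 100.0 µg/kg over 3 days to remove vagal and spinal visceral afferents, against 100.0 µl saline (n = 2). RTX activates the channel TRPV1 so strongly that sensory neurons bearing it are lost. In a marrow chimera, most blood cells come from the donor, whereas structural cells of the lung keep the recipient's genotype. The sources used here do not state the mutation or promoter of the human JAK1 allele, or the share of recipient blood cells left. The counts were of mouse genes, so they did not report the human allele and did not check the genotype label.

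Cytokine receptors without a kinase of their own carry Janus kinases on their inner side. When a cytokine joins the receptor chains, these kinases phosphorylate each other and the receptor, STAT proteins dock there, are phosphorylated in turn, pair up and enter the nucleus, where they switch on target genes that include their own SOCS inhibitors. In allergic airways, IL-4 and IL-13 act through the chain IL-4Ra, JAK1 and STAT6 on epithelium and macrophages, and cytokines of the common gamma chain act on lymphocytes through JAK1 and JAK3. Activity of these proteins is set by phosphorylation, which RNA levels do not report.

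Of these genes, 3 lie side by side on chromosome 11 (GRCm38). Stat5b spans 100780731 to 100850724 on the minus strand, Stat5a spans 100859351 to 100885169 on the plus strand, and Stat3 spans 100885098 to 100939540 on the minus strand. A gap of 8626 bases parts Stat5b from Stat5a, whose 3′ end overlaps that of Stat3 by 72 bases on the opposite strand. Stat6 (chr10:127642986-127660957, plus strand) and Stat2 (chr10:128270559-128292849, plus strand) share chromosome 10, and the kinase genes lie apart, with Jak1 at chr4:101152367-101265282 (minus strand), Jak2 at chr19:29251828-29313080 (plus strand), Jak3 at chr8:71676296-71690575 (plus strand) and Tyk2 at chr9:21104068-21131243 (minus strand). Each span holds the whole gene with its exons, introns and UTRs.

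The likeness of Stat5a and Stat5b bears on every value of this pair, because reads from shared stretches can be credited to either gene. Of the 31-base words in Stat5b transcripts, 15.2% also occurred in transcripts of another gene, and the share was 12.3% for Stat5a, nearly all of it with the other Stat5 gene (836 words). The likeness extends to a start site. RefSeq windows from 250 bases before to 50 bases after an annotated start (GRCm38.p6) are shown for both genes, with the matched stretch in capitals. The Stat5a window is chr11:100860234-100860533 on the plus strand and the Stat5b window is chr11:100822521-100822820 on the minus strand, each at one of the start sites that RefSeq lists for the gene.
Stat5a: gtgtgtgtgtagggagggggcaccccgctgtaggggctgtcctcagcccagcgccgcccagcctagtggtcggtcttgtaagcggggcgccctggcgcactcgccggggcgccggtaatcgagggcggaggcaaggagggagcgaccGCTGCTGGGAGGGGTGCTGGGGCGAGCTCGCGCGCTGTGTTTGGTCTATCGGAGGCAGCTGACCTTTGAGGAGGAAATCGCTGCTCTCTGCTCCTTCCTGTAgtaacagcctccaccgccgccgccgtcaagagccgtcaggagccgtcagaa
Stat5b: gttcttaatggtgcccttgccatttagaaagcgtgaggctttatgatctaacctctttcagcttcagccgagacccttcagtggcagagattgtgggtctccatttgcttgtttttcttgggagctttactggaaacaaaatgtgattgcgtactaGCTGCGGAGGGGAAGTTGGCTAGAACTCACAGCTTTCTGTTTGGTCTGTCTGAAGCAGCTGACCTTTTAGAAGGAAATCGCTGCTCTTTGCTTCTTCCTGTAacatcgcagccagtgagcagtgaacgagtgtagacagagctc
Of 100.0 aligned bases in these stretches 83 were identical, with 3 gaps.

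Start windows of all 9 genes, 11 windows in all, were searched on both strands for 3 short motifs. TTCNNNGAA, and a longer form with 4 free bases between TTC and GAA, are the palindromes to which STAT dimers are known to bind. The third is the core of the interferon-stimulated response element, GAAA repeated after 2 free bases, to which STAT2 binds with its partners after type I interferon. Only the Stat2 window held any of them. It is shown here (chr10:128270248-128270547, plus strand, GRCm38.p6) with both matches in capitals.
Stat2: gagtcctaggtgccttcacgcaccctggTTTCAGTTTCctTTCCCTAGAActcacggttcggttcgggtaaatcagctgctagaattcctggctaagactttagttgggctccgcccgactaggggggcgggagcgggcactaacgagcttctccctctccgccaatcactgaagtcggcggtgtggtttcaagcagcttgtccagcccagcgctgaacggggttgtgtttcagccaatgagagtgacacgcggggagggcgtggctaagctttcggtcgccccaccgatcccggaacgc
The repeated GAAA was read on the minus strand 222 bases before the start and the longer palindrome 210 bases before it, and they do not overlap. Across 32851 mouse start windows of the same length, 3.44% held the repeated GAAA, 6.95% the longer palindrome and 8.30% TTCNNNGAA, so the motifs are found in many genes. A match is a run of letters and was not tested as a binding site.

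Total counts per library were 18198872 to 24393000, and 23427 to 24391 genes were counted. Lung epithelial markers summed to between 18640 and 34060 CPM (a gene's count scaled to a library total of 1000000) in every library. Libraries differed in 2 trace transcripts that the groups do not explain. Rps3a2 was at 3.80 to 6.37 CPM in 5 libraries (WT recipient 1, both intrathecal saline libraries and subcutaneous RTX 2 and 3) and at 0.454 CPM or less in the others. Hmga2 was at 5.37 CPM or more in 7 libraries (both GOF recipients, WT recipient 2, all 3 intrathecal RTX libraries and subcutaneous saline 1) and at 1.29 CPM or less in the others. In the intrathecal experiment this split and the treatment cannot be told apart. In the other experiments the split and the groups ran together in part. Among the chimeras only a WT recipient had high Rps3a2. In the subcutaneous experiment only RTX libraries had high Rps3a2 and only saline 1 had high Hmga2. Nothing in the labels ties the libraries of a group to separate mice, so the p-values measure only the spread between these libraries, which may be technical.

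Per length of annotated exon, Stat6, Jak1 and Stat3 stood at the top and Stat5a at the bottom. Median levels over the 14 libraries were 36.6 CPM per kb for Stat6, 35.5 for Jak1, 34.0 for Stat3, 28.3 for Jak2, 25.0 for Jak3, 18.9 for Stat2, 13.0 for Stat5b, 10.1 for Tyk2 and 5.52 for Stat5a. Set per kb of the longest transcript instead, the medians were 53.6 for Stat3, 52.3 for Jak1, 42.7 for Stat6, 33.1 for Jak3, 28.3 for Jak2, 25.4 for Stat2, 14.4 for Tyk2, 13.8 for Stat5b and 9.94 for Stat5a. The order among the top 3, and within the pairs Jak2 and Jak3 and Stat5b and Tyk2, thus depends on the length used, while Stat2 and Stat5a kept their places. In every library Stat5b had a higher CPM than Stat5a, with a ratio between 1.21 (subcutaneous saline 2) and 3.38 (GOF recipient 1). This ratio does not account for length. Per kb of the longest transcript, subcutaneous RTX averaged 14.4 CPM for Stat5a and 13.9 for Stat5b, while Stat5b had the higher mean in the other groups.

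**Figure D1:**
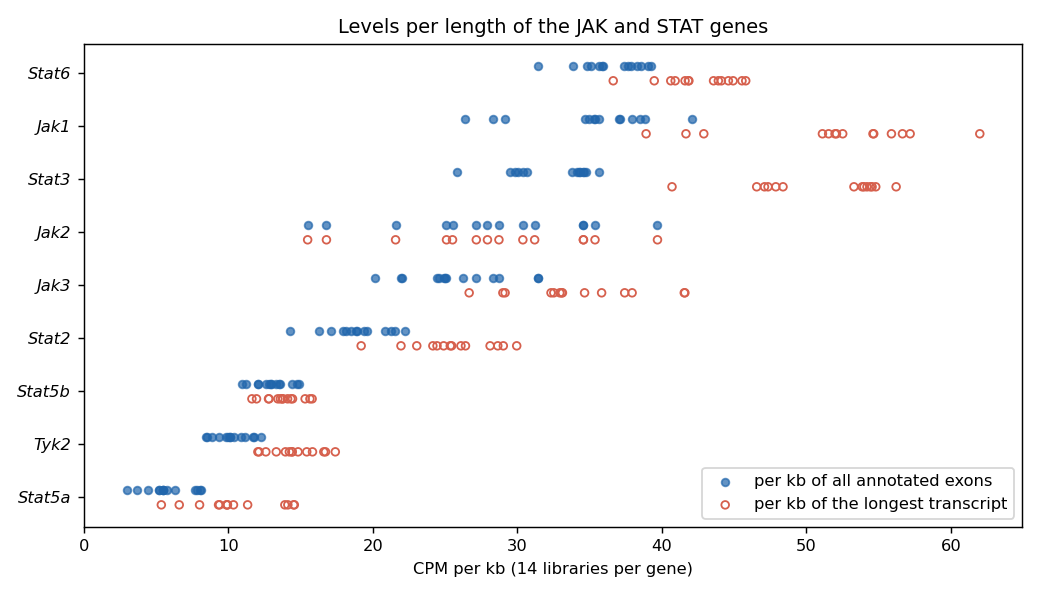
Levels of the 9 genes in CPM per kb (x axis), 1 point per library, by the length of all annotated exons (filled) and of the longest transcript (open). Stat5a lies lowest by both lengths, at medians of 5.52 and 9.94, and the order of Stat6, Jak1 and Stat3 turns with the length used.

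The kinases differed in how widely they ranged across the 14 libraries. Jak1, which serves the widest set of receptor chains, averaged 198 ± 9.57 CPM in GOF recipients and 268 ± 17.7 in WT recipients (SD, with n as above), 271 ± 29.1 with intrathecal RTX and 267 ± 16.2 with its saline, and 270.1 ± 3.55 with subcutaneous RTX and 232 ± 30.0 with its saline. The first 4 groups of its order (intrathecal RTX, subcutaneous RTX, WT recipients, intrathecal saline) overlapped with their neighbours, and GOF recipients lay below all other groups. Subcutaneous saline lay below its neighbour in the order, intrathecal saline, but its higher library (253 CPM) stood above the lowest of intrathecal RTX (251 CPM). Jak2, the kinase of the receptors for GM-CSF, IL-3 and IL-5 and of hormone receptors, had the widest kinase range. It averaged 81.2 ± 4.63 CPM in GOF recipients and 117 ± 12.5 in WT recipients, 149 ± 10.7 with intrathecal RTX and 143 ± 2.82 with saline, and 184 ± 13.9 with subcutaneous RTX and 151 ± 32.2 with saline. Its highest library was 2.56 times its lowest. In the order of Jak2 levels, both saline groups and intrathecal RTX overlapped with their neighbours, and subcutaneous RTX above and WT and GOF recipients below did not. The margin of subcutaneous RTX was narrow, with 173.962 CPM in its lowest library and 173.928 CPM in the highest of its saline.

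Jak3, which sits on the common gamma chain of lymphocyte receptors, averaged 119 ± 16.2 CPM in GOF recipients and 125 ± 9.65 in WT recipients, 139.9 ± 5.50 with intrathecal RTX and 125 ± 11.3 with saline, and 163 ± 8.49 with subcutaneous RTX and 143 ± 12.5 with saline. In the Jak3 order, subcutaneous RTX lay on top without overlap, subcutaneous saline and intrathecal RTX overlapped below it, and intrathecal saline, WT and GOF recipients overlapped at the bottom. Tyk2, the kinase of the receptors for type I interferon, IL-12 and IL-23, averaged 58.4 ± 0.271 CPM in GOF recipients and 72.1 ± 3.43 in WT recipients, 70.1 ± 6.07 with intrathecal RTX and 70.2 ± 2.05 with saline, and 81.7 ± 2.07 with subcutaneous RTX and 64.1 ± 4.62 with saline. Subcutaneous RTX at the top and GOF recipients at the bottom of the Tyk2 order did not overlap with their neighbours, and the 4 groups between did. Levels across experiments stand side by side here, with no test.

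Among the STATs, Stat5a was the most variable of all 9 genes and Stat6 the least. Stat5a, which with Stat5b relays IL-2, IL-7, GM-CSF and hormones, averaged 23.7 ± 3.47 CPM in GOF recipients and 34.5 ± 3.87 in WT recipients, 41.8 ± 2.87 with intrathecal RTX and 39.3 ± 0.192 with saline, and 57.0 ± 0.971 with subcutaneous RTX and 46.0 ± 12.8 with saline. Its highest library was 2.71 times its lowest. Stat5b averaged 75.9 ± 5.66 CPM in GOF recipients and 82.0 ± 0.559 in WT recipients, 67.0 ± 6.43 with intrathecal RTX and 72.9 ± 2.69 with saline, and 72.4 ± 2.72 with subcutaneous RTX and 64.5 ± 3.06 with saline. The paralogs thus had different orders: the chimera groups were lowest for Stat5a and highest for Stat5b. Neighbours overlapped in 2 of 5 steps for Stat5a and in 4 of 5 for Stat5b.

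Stat6, the STAT of IL-4 and IL-13, averaged 168 ± 2.17 CPM in GOF recipients and 172 ± 0.689 in WT recipients, 151 ± 11.1 with intrathecal RTX and 161 ± 4.56 with saline, and 163 ± 7.38 with subcutaneous RTX and 151 ± 3.05 with saline. Its highest library was 1.25 times its lowest, and 3 of 5 neighbouring groups overlapped. Stat3, the STAT of the IL-6 family and of IL-10, averaged 269 ± 32.8 CPM in GOF recipients and 305 ± 29.4 in WT recipients, 318 ± 28.3 with intrathecal RTX and 327 ± 1.41 with saline, and 317 ± 23.7 with subcutaneous RTX and 302 ± 28.8 with saline. Stat2, the STAT of type I interferon, averaged 96.0 ± 16.3 CPM in GOF recipients and 104 ± 10.6 in WT recipients, 117 ± 9.34 with intrathecal RTX and 129 ± 4.07 with saline, and 115 ± 8.73 with subcutaneous RTX and 107 ± 7.50 with saline. For Stat2 and Stat3 all 5 neighbouring pairs of groups overlapped.

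**Figure D2:**
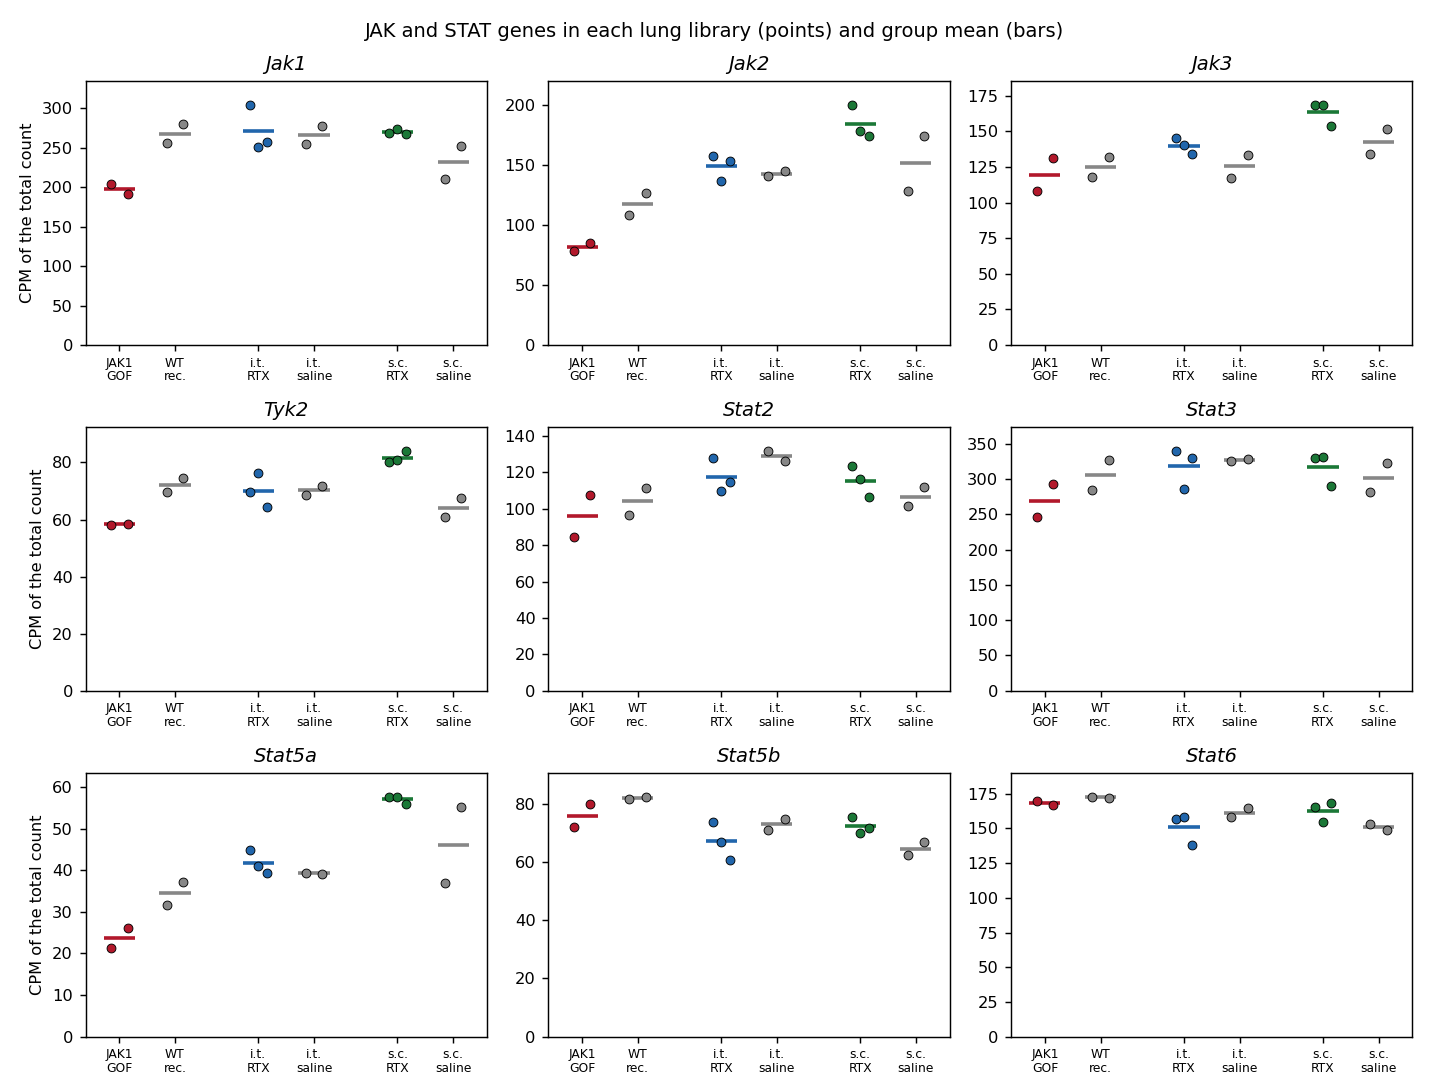
CPM of the total count (y axis, from 0) of each gene in each of the 14 libraries (points), with group means (bars), for JAK1 GOF and WT recipients, intrathecal (i.t.) RTX and saline, and subcutaneous (s.c.) RTX and saline. GOF recipients have the lowest mean for 7 of the 9 genes and subcutaneous RTX the highest for 4, Jak2, Jak3, Tyk2 and Stat5a.

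The first comparison asked whether lungs whose recipient cells carry the human JAK1 gain of function differ from WT lungs with the same WT marrow. Mouse Jak1 was measured at 204 and 191 CPM in GOF recipients, against 256 and 281 CPM in WT recipients. Both GOF libraries lay below both WT libraries, with a log2 fold change of -0.43 ± 0.13 (SE; 95% interval -0.73 to -0.14). The gene did not pass the threshold (edgeR quasi-likelihood test, unadjusted p = 0.00798, Benjamini-Hochberg adjusted p = 0.206). None of the 9 genes had an adjusted p under 0.05, where 0.717% of the 17298 genes tested did. All 9 log2 fold changes were negative (49.9% of all genes were), with a median of -0.17 against 0.000451 over all genes. An unadjusted p under 0.05 with a lower level in GOF recipients was found for 4 of the 9 (Jak1, Jak2, Tyk2 and Stat5a), against 6.94% of all genes.

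Jak2 had the smallest p of the 9. Its levels were 78.0 and 84.5 CPM in GOF recipients, against 109 and 126 CPM in WT recipients, and the log2 fold change was -0.52 ± 0.13 (95% interval -0.80 to -0.24, edgeR adjusted p = 0.0998). Stat5a, a main STAT downstream of Jak2-bound receptors, had 21.3 and 26.2 CPM in GOF recipients, against 31.7 and 37.2 CPM in WT recipients, with a log2 fold change of -0.53 ± 0.15 (95% interval -0.86 to -0.20, edgeR adjusted p = 0.151). Tyk2 had 58.2 and 58.6 CPM in GOF recipients, against 69.7 and 74.5 CPM in WT recipients, with -0.30 ± 0.12 (95% interval -0.55 to -0.04, edgeR adjusted p = 0.349). For these 3 genes, as for Jak1, the groups did not overlap. The Jak2 and Stat5a results turn on a WT library: without WT recipient 1, Jak2 (-0.64, edgeR adjusted p = 0.00575) and Stat5a (-0.66, edgeR adjusted p = 0.00993) passed the threshold, and 919 instead of 124 genes did. With no low-count filter the same 2 genes passed, at edgeR adjusted p = 0.00455 and 0.0112, and DESeq2 called Jak2 alone (adjusted p = 0.0408).

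The other genes were closer to their controls. Stat6 had 169.6 and 167 CPM in GOF recipients, against 173 and 172 CPM in WT recipients, and its log2 fold change was -0.03 ± 0.12 (95% interval -0.29 to 0.24, edgeR adjusted p = 0.96). Stat5b had 71.9 and 79.9 CPM in GOF recipients, against 81.6 and 82.4 CPM in WT recipients, with -0.10 ± 0.12 (95% interval -0.36 to 0.15, edgeR adjusted p = 0.792). The groups of Stat6 and Stat5b did not overlap either, by small margins, which made 6 of 9 genes lower without overlap, where 23% of all genes were. Jak3 had 108 and 131 CPM in GOF recipients, against 118 and 132 CPM in WT recipients, with -0.06 ± 0.14 (95% interval -0.35 to 0.24, edgeR adjusted p = 0.915). Stat3 had 246 and 292 CPM in GOF recipients, against 285 and 326 CPM in WT recipients, with -0.17 ± 0.15 (95% interval -0.51 to 0.16, edgeR adjusted p = 0.715). Stat2 had 84.4 and 108 CPM in GOF recipients, against 96.5 and 112 CPM in WT recipients, with -0.11 ± 0.14 (95% interval -0.43 to 0.21, edgeR adjusted p = 0.824). These last 3 genes overlapped between the groups, and in each GOF recipient 1 was the lowest library.

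**Figure D3:**
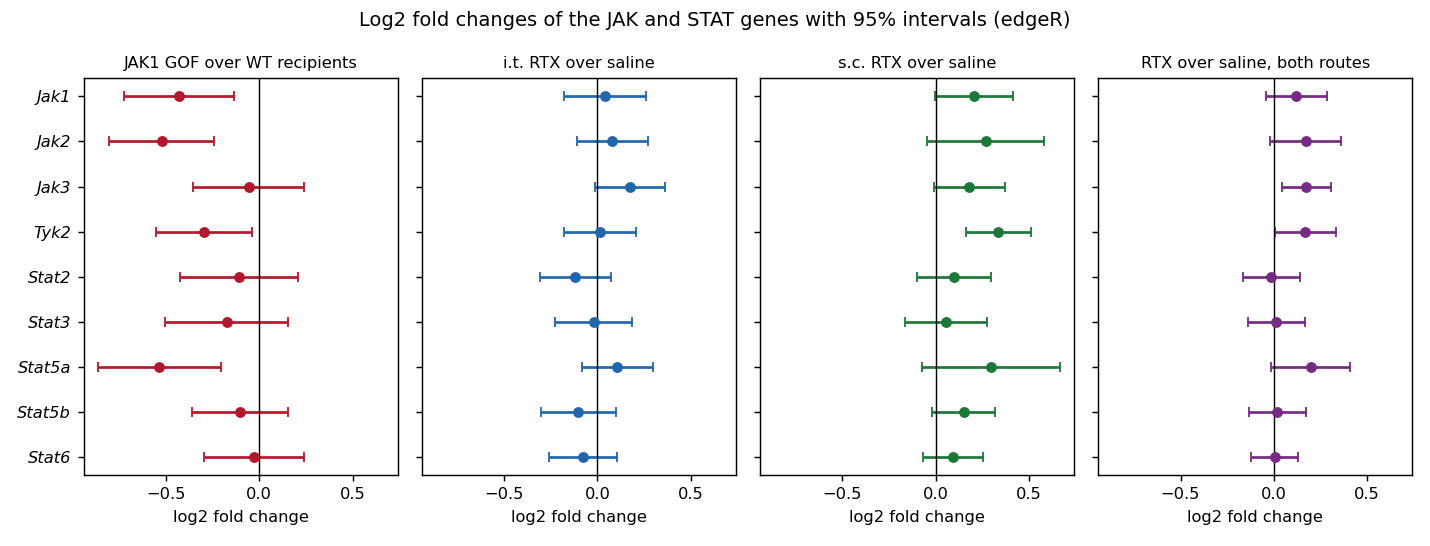
Log2 fold changes (points) with 95% intervals (bars) from edgeR for JAK1 GOF over WT recipients, RTX over saline by each route, and RTX over saline in both routes together. Intervals of Jak1, Jak2, Tyk2 and Stat5a lie below 0 in GOF recipients, that of Tyk2 lies above 0 after subcutaneous RTX, and no gene passed the adjusted threshold in any panel.

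Genes past the threshold were found among the receptor chains, the inhibitors and the genes linked to STAT6 and STAT5. On simulated data, false calls in this comparison took a larger share than the nominal level, which bears most on calls near the threshold such as Il10ra and Ptprc. Of 26 chains of receptors that signal through JAK1, 4 fell and none rose in GOF recipients, where 0.543% of all genes fell. The median log2 fold change of these 26 was -0.18. Il7r, the IL-7 receptor chain of T cells and innate lymphocytes, fell to 16.1 and 19.6 CPM, against 41.0 and 35.4 CPM in WT recipients (log2 fold change -1.09 ± 0.15, edgeR adjusted p = 0.0123). Il2ra, the high-affinity IL-2 receptor chain of activated and regulatory T cells, had 5.69 and 4.89 CPM in GOF recipients, against 13.1 and 13.8 CPM in WT recipients (-1.33 ± 0.20, edgeR adjusted p = 0.0181). Il21r (-1.11 ± 0.18, edgeR adjusted p = 0.0228) and Il10ra (-0.73 ± 0.14, edgeR adjusted p = 0.0443), the chains for IL-21 and IL-10, fell as well. The Il2ra call was lost with all 14 libraries in 1 fit, without and with the library split as a term (edgeR adjusted p = 0.29 and 0.195), and the Il21r call with limma voom (adjusted p = 0.051). The Il10ra call was lost without GOF recipient 2 (edgeR adjusted p = 0.111), with limma voom (adjusted p = 0.0838) and in both fits of all 14 libraries (edgeR adjusted p = 0.0502 and 0.05). Of 13 tested chains of receptors listed for JAK2 or TYK2, none passed, with a median log2 fold change of -0.63. An unadjusted edgeR p under 0.05 with a lower level was found for 7 of these 13. It was found for 8 of the 26 chains listed for JAK1, against 6.94% of all genes, so the fall was not particular to the JAK1 list. Csf2rb, the shared chain for GM-CSF, IL-3 and IL-5, had the smallest p, at 71.7 and 75.5 CPM in GOF recipients, against 106 and 150.0 CPM in WT recipients (-0.79 ± 0.17, edgeR adjusted p = 0.0686).

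Of 20 inhibitors of the pathway, 1 fell, the phosphatase gene Ptprc (CD45), which is also a marker of all leukocytes (-0.84 ± 0.15, edgeR adjusted p = 0.0354). It lost the call without GOF recipient 1 (edgeR adjusted p = 0.0899), without WT recipient 2 (edgeR adjusted p = 0.0528), with limma voom (adjusted p = 0.0648) and with all 14 libraries in 1 fit, without and with the library split (edgeR adjusted p = 0.0914 and 0.0617). All 16 genes linked to STAT6 had negative log2 fold changes (49.9% of all genes did), with a median of -1.38. Of these, 2 passed, where 0.543% of all genes were lower past the threshold. Chil3 (Ym1), a lectin that macrophages release under IL-4, fell to 364 and 354 CPM in GOF recipients, against 1090.4 and 1669 CPM in WT recipients (-1.94 ± 0.22, edgeR adjusted p = 0.00547). Ccl22, a chemokine that draws type 2 T cells, fell to 18.8 and 15.6 CPM in GOF recipients, against 33.6 and 49.0 CPM in WT recipients (-1.26 ± 0.19, edgeR adjusted p = 0.0267). The Ccl22 call was lost without either GOF library (edgeR adjusted p = 0.117 and 0.144) and with limma voom (adjusted p = 0.051). The count of called genes linked to STAT6 rose without either WT library and fell without either GOF library. Each of these fits left a group with a lone library. The count over all genes also depended on the library left out, so these shifts were not read as a result about the list. Stat6 RNA itself was at a ratio close to 1 in the same libraries.

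The lists linked to the other STATs held 1 call. Of 10 genes linked to STAT5, Il2ra fell, and of 12 linked to STAT3 and 14 linked to STAT2 and interferon, none passed. Their medians were -0.16 for STAT5, -0.15 for STAT3 and 0.04 for STAT2. Serpina3n, an acute-phase protease inhibitor, had the smallest p of the STAT3 list (-0.41 ± 0.16, edgeR adjusted p = 0.326), and Bst2, an antiviral membrane protein, that of the STAT2 list (0.38 ± 0.13, edgeR adjusted p = 0.256). A few genes, such as Cish, stand in several lists.

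Markers of cell types moved with the groups. Of all genes, 0.543% were lower and 0.173% higher past the threshold in GOF recipients, and 49.9% had negative log2 fold changes. Of 12 markers of T cells and innate lymphocytes, Il7r among them, 5 fell in GOF recipients and all 12 had negative log2 fold changes (median -0.82), and their summed level was 107.8 to 137 CPM, against 205 to 235 CPM in WT recipients. B and plasma cell markers summed to 228 to 269 CPM in GOF recipients, against 453 to 559 CPM in WT recipients (2 of 10 fell, median -0.74). Natural killer cell markers summed to 23.9 to 47.8 CPM in GOF recipients, against 53.1 to 64.7 CPM in WT recipients, eosinophil markers to 44.8 to 50.5 CPM, against 75.5 to 123 CPM, and neutrophil markers to 234 to 327 CPM, against 368 to 432 CPM. Of these lists 0 of 9, 0 of 7 and 1 of 9 tested genes fell. Macrophage and monocyte markers summed to 5757 to 6344 CPM in GOF recipients, against 5551 to 5654 CPM in WT recipients. The sum and the single genes differed in direction: 9 of 11 had negative log2 fold changes and 2 positive (median -0.20), with 2 lower past the threshold. Heart muscle markers summed to 592 to 599 CPM in GOF recipients, against 267 to 381 CPM in WT recipients, and 6 of 10 rose. Epithelial markers (median 0.18), endothelial markers (0.15) and fibroblast and smooth muscle markers (-0.20) held no called gene. Of all markers used, Ly6g of neutrophils and Epx of eosinophils were at 0 in some libraries, 2 each. In bulk tissue, fewer cells of a type and less RNA per cell cannot be told apart, and the part of these markers in the values of the 9 genes was not tested.

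The second comparison asked what removal of spinal visceral afferents did to these genes. None of the 9 passed the threshold after intrathecal RTX, where 0.311% of 17360 genes did, and none had an unadjusted p under 0.05, against 11.5% of all genes. Log2 fold changes were positive for 5 and negative for 4, with a median of 0.02 against 0.00755 over all genes. The 95% intervals of all 9 held 0, and their outer ends were -0.31 (Stat2) and 0.36 (Jak3). They cover RTX and the library split together, which cannot be told apart in this experiment. In the fit of all 14 libraries with the split as a term, Stat2 had -0.28 ± 0.17.

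Jak3 came nearest to the threshold, at 145, 140.3 and 134 CPM with RTX, against 117 and 133 CPM with saline. All 3 RTX libraries lay above both saline libraries, by less than 1 CPM at the closest pair, and the log2 fold change was 0.17 ± 0.08 (95% interval -0.01 to 0.36, edgeR adjusted p = 0.464). Stat6 lay the other way, at 157, 158 and 138 CPM with RTX, against 158 and 165 CPM with saline (-0.08 ± 0.08, 95% interval -0.26 to 0.11, edgeR adjusted p = 0.77). The closest pair of Stat6 libraries was also less than 1 CPM apart. These were the only 2 of the 9 genes without overlap between the groups, 1 in each direction, where 13.5% of all genes were higher and 16.8% lower without overlap. Jak1 had 304, 251 and 258 CPM with RTX, against 255 and 278 CPM with saline (0.04 ± 0.10, edgeR adjusted p = 0.915). Jak2 had 157, 137 and 153 CPM with RTX, against 141 and 145 CPM with saline (0.08 ± 0.09, edgeR adjusted p = 0.769). In both of these genes the saline values lay inside the range of the RTX values.

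Tyk2 had 69.6, 76.5 and 64.3 CPM with RTX, against 68.7 and 71.6 CPM with saline, with a log2 fold change of 0.02 ± 0.09 (edgeR adjusted p = 0.967). Stat5a had 44.9, 41.0 and 39.3 CPM with RTX, against 39.4 and 39.1 CPM with saline (0.11 ± 0.09, edgeR adjusted p = 0.686). Stat5b had 73.6, 66.9 and 60.7 CPM with RTX, against 70.9 and 74.8 CPM with saline (-0.10 ± 0.09, edgeR adjusted p = 0.709). RTX library 3 was the lowest of the 5 for Stat5b, Stat6 and Tyk2. Stat2 had 128, 109.5 and 115 CPM with RTX, against 132 and 126 CPM with saline (-0.12 ± 0.09, edgeR adjusted p = 0.645). Stat3 had 339.7, 286 and 329 CPM with RTX, against 326 and 327 CPM with saline (-0.02 ± 0.09, edgeR adjusted p = 0.96). For Stat2 and Stat3, RTX library 2 was the lowest of the 5.

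Of the pathway lists, that linked to STAT3 held a called gene and the other 6 held none. All 12 genes linked to STAT3 had positive log2 fold changes (51.5% of all genes did), with a median of 0.31. Of these, 7 had an unadjusted edgeR p under 0.05, against 5.85% of all genes in this direction. For all 12, RTX and the split by trace transcripts cannot be told apart in this experiment. Cebpb, a transcription factor of inflammation and the acute phase, rose to 93.4, 95.3 and 86.7 CPM with RTX, against 43.4 and 42.3 CPM with saline (1.12 ± 0.08, edgeR adjusted p = 0.000399). Cebpb also differed between libraries of 1 group on either side of the split by trace transcripts. It was at 29.7 to 33.8 CPM in subcutaneous RTX 2 and 3, which share high Rps3a2 with the intrathecal saline libraries, and at 87.6 CPM in subcutaneous RTX 1, which does not. The remaining library with high Rps3a2, WT recipient 1, had 65.2 CPM, above those 4 libraries and below the 87.9 CPM of WT recipient 2. In a fit of all 14 libraries its log2 fold change was 1.11 (edgeR adjusted p = 0.425), and with the split as a further term it was 0.23 (edgeR adjusted p = 1). Socs3, the feedback inhibitor of STAT3 signalling and the inhibitor with the smallest p, had 0.36 ± 0.11 (edgeR adjusted p = 0.278). Il9r, the IL-9 receptor chain, had 3.77, 4.49 and 4.27 CPM with RTX, against 7.19 and 7.84 CPM with saline (-0.83 ± 0.18, edgeR adjusted p = 0.109).

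The remaining genes with the smallest p of their lists were Csf3r, the G-CSF receptor (0.50 ± 0.12, edgeR adjusted p = 0.142), the eosinophil chemokine Ccl24 (0.72 ± 0.13, edgeR adjusted p = 0.0734), the survival gene Bcl2l1 (-0.15 ± 0.07, edgeR adjusted p = 0.464) and the interferon-induced Ifit3 (0.31 ± 0.07, edgeR adjusted p = 0.146). No cell type marker passed the threshold. The marker lists with the largest medians were those of neutrophils (0.45 over 7 tested, summed level 106.9 to 138 CPM with RTX, against 97.6 to 102 CPM with saline), eosinophils (0.38 over 7 tested, 175 to 205 CPM with RTX, against 169 to 174 CPM with saline) and T cells and innate lymphocytes (0.35 over 12 tested, 155 to 242 CPM with RTX, against 161 to 179 CPM with saline). Medians of the other lists were 0.30 for B and plasma cells, 0.23 for heart muscle, 0.14 for natural killer cells, 0.04 for endothelium, 0.02 for macrophages and monocytes, -0.04 for epithelium and -0.18 for fibroblasts and smooth muscle. Their part in these values was not tested.

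The third comparison asked the same for removal of both vagal and spinal visceral afferents. After subcutaneous RTX all 9 genes had positive log2 fold changes, as 49.2% of all genes did, with a median of 0.18 against -0.00447 over all genes. None of the 9 passed the threshold, and neither did any of the 17363 genes tested (0%), although 3153 genes had an unadjusted p under 0.05 and DESeq2 called 761. In 7 of the 9 genes all RTX libraries lay above both saline libraries, where 20.5% of all genes did so. An unadjusted p under 0.05 with a higher level was found for 1 of the 9, against 8.97% of all genes.

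That gene was Tyk2, at 80.2, 80.8 and 84.1 CPM with RTX, against 60.9 and 67.4 CPM with saline. The RTX values lay close together and well above both saline values, with a log2 fold change of 0.34 ± 0.08 (95% interval 0.16 to 0.51, edgeR adjusted p = 0.126). Tyk2 passed with no low-count filter (edgeR adjusted p = 0.0274) and with DESeq2 (adjusted p = 0.0169). Jak2 had 199.7, 178 and 174 CPM with RTX, against 128 and 174 CPM with saline (0.27 ± 0.13, 95% interval -0.05 to 0.58, edgeR adjusted p = 0.334). Stat5a had 57.5, 57.7 and 55.9 CPM with RTX, against 36.9 and 55.1 CPM with saline (0.30 ± 0.16, 95% interval -0.07 to 0.67, edgeR adjusted p = 0.362). In Jak2 and Stat5a, saline library 2 stood just below the RTX libraries and saline library 1 far below. Saline library 1 was also the only library of this experiment with high Hmga2. In the fit of all 14 libraries with the split as a term, Jak2 had 0.37 ± 0.12 (edgeR adjusted p = 0.143). Stat5a had 0.34 ± 0.16 in that fit (edgeR adjusted p = 0.305). Without saline library 2, Jak2 (0.51, edgeR adjusted p = 0.0429), Tyk2 (0.41, edgeR adjusted p = 0.044) and Stat5a (0.62, edgeR adjusted p = 0.0194) passed, and 871 genes did. Without saline library 1 the log2 fold changes were 0.06 for Jak2, 0.26 for Tyk2 and 0.03 for Stat5a, and none of these genes passed.

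Jak1 had 268, 274 and 268 CPM with RTX, against 211 and 253 CPM with saline (0.21 ± 0.09, 95% interval -0.0020 to 0.42, edgeR adjusted p = 0.278). Jak3 had 168, 168 and 154 CPM with RTX, against 134 and 152 CPM with saline (0.18 ± 0.08, 95% interval -0.01 to 0.37, edgeR adjusted p = 0.295). In both kinases saline library 1 was again the lowest. Stat5b had 75.3, 70.0 and 71.7 CPM with RTX, against 62.4 and 66.7 CPM with saline (0.15 ± 0.07, edgeR adjusted p = 0.317). Stat6 had 166, 155 and 168 CPM with RTX, against 153 and 149 CPM with saline (0.09 ± 0.07, edgeR adjusted p = 0.504). The groups of Stat5b and Stat6 did not overlap. Stat2 had 124, 116 and 106 CPM with RTX, against 101 and 112 CPM with saline (0.10 ± 0.09, edgeR adjusted p = 0.575). Stat3 had 329.6, 331 and 289 CPM with RTX, against 281 and 322 CPM with saline (0.06 ± 0.10, edgeR adjusted p = 0.792). For Stat2 and Stat3 the groups overlapped through RTX library 3, the lowest of its group.

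**Figure D4:**
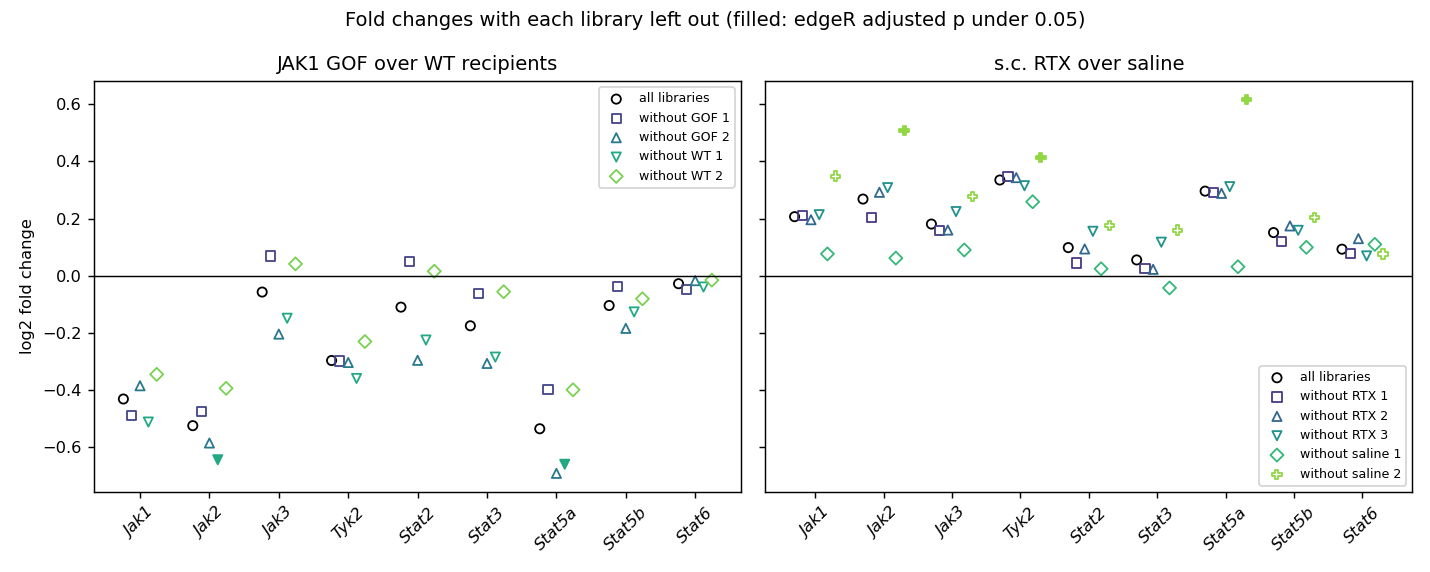
Log2 fold changes (y axis) of the 9 genes with all libraries and with each library left out in turn, for GOF over WT recipients (left) and subcutaneous RTX over saline (right); filled symbols passed an edgeR adjusted p of 0.05. Filled symbols appear without WT recipient 1 (Jak2, Stat5a) and without saline library 2 (Jak2, Tyk2, Stat5a).

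No gene of the pathway lists passed after subcutaneous RTX. The genes with the smallest p were Ptpn6 (SHP-1), a phosphatase of blood cells that dampens cytokine receptors (0.50 ± 0.10, edgeR adjusted p = 0.11), Il7r (0.59 ± 0.13, edgeR adjusted p = 0.126), the GM-CSF receptor chain Csf2ra (0.46 ± 0.12, edgeR adjusted p = 0.138) and Ccl22 (0.65 ± 0.14, edgeR adjusted p = 0.124). For the lists linked to STAT3, STAT5 and STAT2 they were Cebpd (-0.42 ± 0.11, edgeR adjusted p = 0.136), the growth factor Igf1 (0.64 ± 0.12, edgeR adjusted p = 0.117) and the antiviral Oas2 (0.42 ± 0.15, edgeR adjusted p = 0.209). Medians of the 7 lists ran from 0.03 (STAT3) to 0.36 (chains of receptors listed for JAK2 or TYK2). The leave-out of saline library 2 left saline library 1 alone against the RTX libraries. Calls then appeared in that receptor list, all higher, as they did among all genes in both directions. They were not read as a result about the list.

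No cell type marker passed the threshold after subcutaneous RTX, while several lists had 1 sign throughout. Over all genes, 49.2% of log2 fold changes were positive and 50.8% negative. All 12 lung epithelial markers had negative log2 fold changes (median -0.39), with a summed level of 18640 to 21610 CPM with RTX, against 25250 to 34060 CPM with saline. All 10 B and plasma cell markers were positive (median 1.06, 907 to 4715 CPM with RTX, against 891 to 1768 CPM with saline). All 8 eosinophil markers were positive (median 1.01, 348 to 389 CPM with RTX, against 232 to 302 CPM with saline), and so were all 8 tested neutrophil markers (median 0.74, 199 to 259 CPM with RTX, against 101 to 165 CPM with saline). T cell and innate lymphocyte markers summed to 253 to 281 CPM with RTX, against 181 to 253 CPM with saline (median 0.24). All 10 heart muscle markers were negative (median -0.88, 149 to 189 CPM with RTX, against 126 to 463 CPM with saline). Medians of the other lists were 0.25 for macrophages and monocytes, 0.08 for natural killer cells, -0.02 for fibroblasts and smooth muscle and -0.20 for endothelium. Their part in the values of the 9 genes was not tested.

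Both RTX experiments were also fitted together, each set against its own saline. None of the 9 genes passed, nor did any of 17972 genes (0%), where 2401 had an unadjusted p under 0.05 and DESeq2 called 390. Jak3 had the smallest p of the 9, with a log2 fold change of 0.17 ± 0.06 (95% interval 0.04 to 0.30, edgeR adjusted p = 0.248). Its 6 RTX libraries lay above the saline libraries of their own experiment, which held for no other of the 9 genes and for 2.32% of all genes in this direction. Tyk2 followed with 0.17 ± 0.07 (95% interval 0.01 to 0.33, edgeR adjusted p = 0.354), and Jak3 and Tyk2 were the 2 of 9 with an unadjusted p under 0.05, against 5.7% of all genes in this direction. Stat5a had 0.20 ± 0.10 (edgeR adjusted p = 0.398), Jak2 0.17 ± 0.09 (edgeR adjusted p = 0.418) and Jak1 0.12 ± 0.08 (edgeR adjusted p = 0.505). Stat2, Stat3, Stat5b and Stat6 lay between -0.01 and 0.02. No gene of the pathway lists passed in this fit.

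The difference between the routes, subcutaneous minus intrathecal effect, was tested in the same 10 libraries. The intrathecal and subcutaneous doses, volumes and schedules differed, so the routes are not matched in dose. The library split also differed between the experiments. High Hmga2 was found in all intrathecal RTX libraries, but in the subcutaneous experiment only in saline library 1. Each difference therefore covers the route and the split together. Of the 9 genes none passed, where 0.0556% of all genes did, and all 9 differences were positive (49.3% of all genes). Tyk2 had the smallest p, with a difference of 0.33 ± 0.11 on the log2 scale (95% interval 0.08 to 0.58, edgeR adjusted p = 0.23), from 0.34 by the subcutaneous and 0.02 by the intrathecal route. Stat5b had a difference of 0.26 ± 0.12 (95% interval 0.0041 to 0.52, edgeR adjusted p = 0.322). These were the 2 of 9 with an unadjusted p under 0.05, against 7.53% of all genes in this direction. Jak3 had the smallest difference, 0.02 ± 0.12 (95% interval -0.25 to 0.28, edgeR adjusted p = 0.968). In the pathway lists no difference passed, and Il9r had the smallest p of its list, with a difference of 1.96 ± 0.34 (edgeR adjusted p = 0.0786).

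Because reads can be split between Stat5a and Stat5b, their counts were also summed. The sum had a log2 fold change of -0.22 ± 0.12 in GOF over WT recipients (edgeR adjusted p = 0.544), -0.03 ± 0.09 for intrathecal RTX (edgeR adjusted p = 0.938) and 0.21 ± 0.09 for subcutaneous RTX (edgeR adjusted p = 0.279). For the other genes, shared 31-base words made up 8.78% of Tyk2, 8.29% of Jak3, 2.36% of Stat3, 1.89% of Stat2 and less than 1% of Stat6, Jak1 and Jak2. Jak3 shares 404 exon bases with Insl3 on the same strand, a gene at 1.01 to 2.97 CPM. The sources used here do not state whether the counting used strand. Reads in the overlaps of Tyk2 with 1700084C06Rik (554 bases) and of Stat3 with Stat5a therefore cannot be assigned to a single gene of each pair. The counts credited at most 0.173 CPM to 1700084C06Rik, against 58.2 CPM or more to Tyk2.

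The 9 genes did not vary as one block across the libraries. Log2 CPM was centred on the mean of each experiment and correlated over the 14 libraries, which share the experiments, their depth and their cell makeup, so the values are descriptions. Jak2 and Stat5a went together most closely (Pearson's r = 0.946), followed by Jak1 with Jak2 (0.906), Stat2 with Stat3 (0.891) and Jak1 with Stat5a (0.872). Stat6 stood apart, at -0.0745 with Stat3 and 0.186 with Jak2, and its highest value was 0.765 with Stat5b. The largest deviations were those of Stat5a in subcutaneous saline 1 (-0.49), GOF recipient 1 (-0.42) and WT recipient 2 (0.38), and of Jak2 in the same libraries (-0.40, -0.32 and 0.37).

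**Figure D5:**
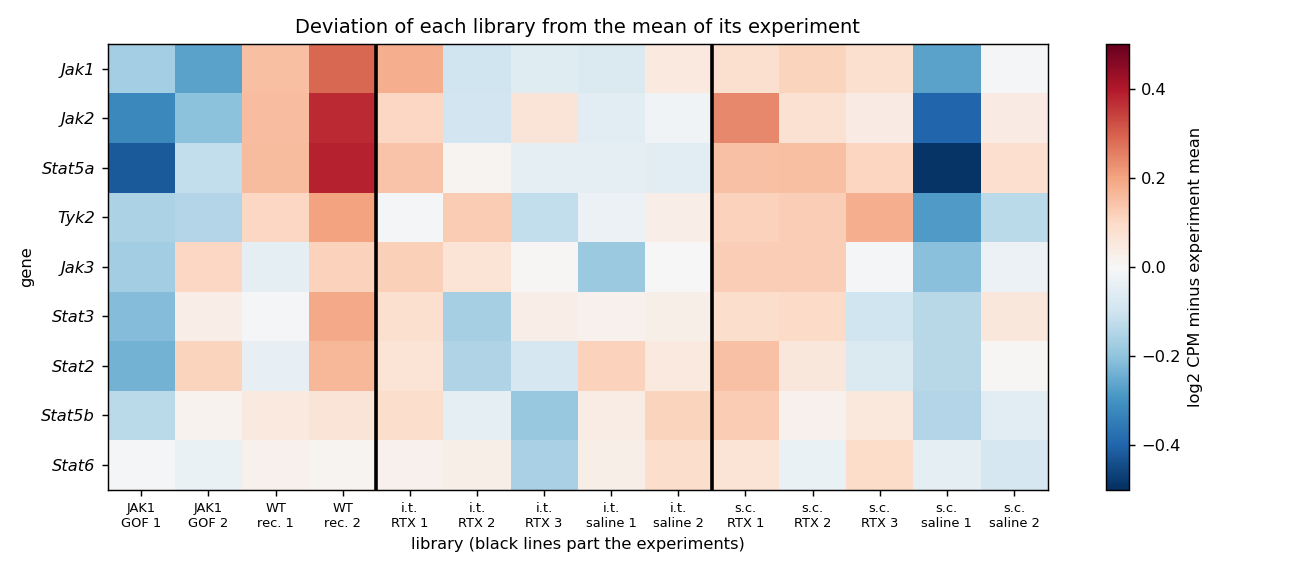
Deviation of each library (columns) from the mean of its experiment, in log2 CPM, for each gene (rows, black lines part the experiments). Every gene is below the mean in subcutaneous saline 1. Jak1, Jak2, Stat5a, Tyk2 and, by little, Stat6 are below it in both GOF recipients. Stat6 stays near 0 in most libraries.

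Among 14132 genes with a mean of 1 CPM or more, predicted and clone-named genes left out, the genes most like each member over the 14 libraries were named by Pearson's r of the same centred values. For Jak2 they were Galnt6, a glycosyltransferase (0.98), Vdr, the vitamin D receptor (0.972), and Il31ra, the IL-31 receptor chain (0.967). Vdr also stood beside Stat5a (0.961), with Cep192, a centrosome protein (0.963), and Nckap1l, an actin regulator of blood cells (0.961). Jak1 was most like Mmp25 (0.961), Lpxn (0.955) and Rab8b (0.952), and Tyk2 like Arap1 (0.965), Orai2 (0.955) and Hvcn1, a proton channel of immune cells (0.944). Jak3 was most like Tcof1 (0.924), Tonsl (0.917) and Rcc2 (0.913). Stat2 was nearest to Trappc8 (0.951), Uba6 (0.938) and Dcaf1 (0.934), Stat3 to Heatr1 (0.952), Rrm1, a subunit of ribonucleotide reductase (0.935), and Mdn1 (0.932), and Stat5b to Helz (0.94), Notch2 (0.935) and Dock8 (0.935). Stat6 had the loosest neighbours, Inpp4a (0.886), Rrnad1 (0.867) and Gtpbp2 (0.865).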

How the data were processed

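Gene tables of estimated counts from Salmon, 1 per experiment, were deposited by the authors. Per the labels' protocols, mRNA was selected with oligo-dT. Per the submitters' processing notes, FastQC 0.11.8, Trim Galore 0.6.6, STAR 2.7.5b and Salmon 1.2.1 were used with GRCm38; these sources do not state the annotation release or strand setting. Of 760858 values 24.2% were not whole, and all were rounded for testing. Each experiment was fitted in edgeR 4.0.16 (R 4.3.3) with TMM scaling, filterByExpr (minimum count 10, minimum total 15) and a robust quasi-likelihood test, two-sided, with Benjamini-Hochberg adjustment over all genes at 0.05. Standard errors are the log2 fold change over the root of F. CPM is of each library's total count. A count of 3 corresponded to 0.123 to 0.165 CPM, which covers counting error only. DESeq2 1.42.0, limma 3.58.1 voom, other scalings, no filter, all libraries in 1 fit, the library split and leave-outs were alternatives. The procedure was tested on simulated data, where the share of false calls was above the nominal level in each comparison but the difference between routes, and highest for GOF over WT recipients. The 9 genes and all lists were chosen with earlier results of these data known. In each pathway list, up to 4 genes past the threshold with the smallest p were named, or the 1 with the smallest p.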

Additional observations from a re-analysis of the deposited data

Results flagged for a closer look

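Stat6 had log2 fold changes of opposite sign in the RTX experiments. Its log2 fold change was -0.077 for intrathecal RTX, where all 3 RTX libraries lay below both saline libraries. The margin was narrow, with 157.951 CPM in the highest RTX library and 158.094 CPM in the lowest saline library. For subcutaneous RTX it was 0.093, and all 3 RTX libraries lay above both saline libraries. Of all genes, 16.8% were lower without overlap after intrathecal RTX and 20.5% higher without overlap after subcutaneous RTX. The test of the difference between the routes gave 0.18 ± 0.11 on the log2 scale (edgeR adjusted p = 0.451) and did not pass the threshold. This difference covers the route and the library split together. No group held 4 libraries, so single libraries were not tested as outliers.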

How the results depend on the processing

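Counts of genes past the threshold depended on the filter, the tool and single libraries. With all genes kept, the counts were 807 for GOF over WT recipients (124 in the report), 655 for intrathecal RTX (54), 807 for subcutaneous RTX (0), 62 for both routes (0) and 147 for the difference (10). DESeq2 gave 305, 254, 761, 390 and 312, and all 14 libraries in 1 fit gave 50, 7, 71, 2 and 0. With the library split as a term, the counts were 5 for intrathecal RTX, 184 for subcutaneous RTX, 9 for both routes and 6 for the difference. With limma voom GOF over WT recipients gave 45. Leaving out 1 library gave 83 to 919, 19 to 40, 0 to 871, 0 to 2 and 0 to 90. Of the 9 genes, 2 passed in GOF over WT recipients with no filter, 1 with DESeq2 and 0 to 2 on leaving out a library; for subcutaneous RTX it was 1, 1 and 0 to 3. None of the 9 passed in the other 3 comparisons under any alternative. Samples sharing a replicate number did not deviate together (r = 0.025 in the chimeras, -0.196 and -0.168 intrathecal, -0.0981 and -0.0526 subcutaneous). This gave no sign of pairing but cannot exclude it, because the deviations also carry the library split. With 2 libraries per chimera group, the deviations of a group mirror each other and give only 1 value of r. With the replicate block, 123, 50, 0, 0 and 7 genes and none of the 9 passed. Directions that turned were of uncalled values: intrathecal Tyk2 with total counts (-0.0017) and with the library split (-0.0015), Stat2 in both routes with the replicate block (0.0198), and the difference for Jak3 with no filter (-0.0032). On leaving out a library, ranges spanned 0 for Jak3 (-0.204 to 0.0696) and Stat2 (-0.295 to 0.0489) in GOF recipients, for Jak1 (-0.0477 to 0.108), Tyk2 (-0.0469 to 0.0676) and Stat3 (-0.0655 to 0.055) after intrathecal RTX, and for Stat3 (-0.0423 to 0.16) after subcutaneous RTX. They also did so for Stat2 (-0.0693 to 0.0209), Stat3 (-0.0337 to 0.0518), Stat5b (-0.0321 to 0.066) and Stat6 (-0.0236 to 0.0388) in both routes, and for the differences of Jak2 (-0.0116 to 0.436), Jak3 (-0.0863 to 0.111), Stat3 (-0.0165 to 0.188) and Stat5a (-0.0686 to 0.518). Mean levels per kb of exon, and per kb of the longest transcript, were 34.7 and 51.1 for Jak1, 25.4 and 33.6 for Jak3, 10.1 and 14.4 for Tyk2, 18.8 and 25.3 for Stat2, 32.2 and 50.7 for Stat3, 5.66 and 10.2 for Stat5a, 13.1 and 13.9 for Stat5b, and 36.6 and 42.7 for Stat6. The cause of these shifts was not tested beyond the change each alternative makes.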
